A study of Mus musculus with 6 samples.

Results

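Reference genes are transcripts against which the level of other transcripts is set, on the assumption that they keep a steady level across the conditions compared. The 5 such genes described here in mouse muscle satellite cells, the stem cells of adult muscle, after and before differentiation are Actb, Gapdh, Ppia, Hprt and Tbp. They were taken as every array feature whose platform gene symbol is one of these names. Each gene had 1 feature, so there were 5 members among 10500 features, 6373 of which carry a gene symbol, and all 5 had a value on all 6 arrays. The 3 differentiated cultures had been kept for 72 hours without bFGF, a growth factor that keeps myoblasts dividing. Their medium held insulin, labelled as 1 mM, and 10% horse serum. The 3 proliferating cultures were harvested as myoblasts in growth medium with bFGF at 6.6 ng/ml. Both came from the hind limbs of the same 3 adult male Swiss Webster mice, 1 culture of each kind per mouse, so every array has a partner from the same animal. The cells of each mouse were pooled from several muscles and passed through repeated plating meant to remove fibroblasts, and each culture is a mix of purified clones.

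The 5 genes serve unrelated tasks. Actb encodes cytoplasmic beta-actin, the actin of the cell cortex and of motility, which in muscle is joined and then largely replaced by the sarcomeric actins as myoblasts fuse into myotubes. Gapdh is an enzyme of glycolysis, a pathway that skeletal muscle uses heavily. Ppia is cyclophilin A, a peptidyl-prolyl isomerase that helps proteins fold and binds cyclosporin. Hprt salvages purine bases, and Tbp is the TATA-binding protein that nucleates transcription by all 3 nuclear RNA polymerases.

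The genes also differ at their promoters. RefSeq promoter sequences (GRCm38.p6) matched 4 of the 5 genes, and the 250 bases before the start of Ppia and of Hprt are shown because these were the most and the least variable of the matched 4 over the arrays. Capitals mark the TATA box letters TATAAA and the GC box letters GGGCGG, each searched on both strands. No overlap of one motif with another was found in these windows.
Ppia (chr11:6415617-6415866, plus strand): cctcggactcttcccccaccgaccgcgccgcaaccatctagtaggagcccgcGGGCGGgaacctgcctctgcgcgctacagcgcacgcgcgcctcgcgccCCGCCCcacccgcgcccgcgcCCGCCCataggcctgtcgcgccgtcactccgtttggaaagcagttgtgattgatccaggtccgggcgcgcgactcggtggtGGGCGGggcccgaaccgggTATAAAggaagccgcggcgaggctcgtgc
Hprt (chrX:52987828-52988077, plus strand): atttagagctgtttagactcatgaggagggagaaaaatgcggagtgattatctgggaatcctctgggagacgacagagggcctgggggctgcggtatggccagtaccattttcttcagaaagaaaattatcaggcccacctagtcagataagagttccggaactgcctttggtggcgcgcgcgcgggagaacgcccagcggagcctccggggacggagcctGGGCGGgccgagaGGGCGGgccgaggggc
The Ppia window holds 1 TATAAA, from position -29 to -24 before the start, and 4 GC boxes, with 72.4% G and C. The Hprt window holds 2 GC boxes within 29 bases of the start, no TATAAA, and 59.6% G and C. The Tbp window has 1 GC box. The Gapdh window (chr6:125165774-125166023, minus strand) has neither motif. It lies within the gene's range of 125161852 to 125166467, so it precedes a start other than the outermost one. Among 32851 promoter windows of this length, 12.4% hold a TATAAA and 32.7% a GC box, and 4.09% hold 4 GC boxes or more. These counts describe letters only.

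Median intensities lay between 0.883 and 0.939 on the 6 arrays. Of 10186 features tested, limma, which fits a linear model to every feature and moderates its variance, called 0.285% higher and 1.01% lower in differentiated cells (1.3% in all) at a Benjamini-Hochberg adjusted p under 0.05. The labels were checked against marker lists: of 15 measured genes of dividing cells 10 fell and 0 rose, and all 16 measured genes of muscle differentiation had positive differences, of which 1 rose. Summed intensities of the 16 muscle genes were 2119, 1419 and 1607 in the differentiated cultures of mice 1, 2 and 3, against 913, 133 and 361 in the proliferating cultures. Those of 15 proliferation genes were 34.4, 27.9 and 23.4, against 135, 204 and 183. The highest value of 6 endothelial markers was 0.305, below the median intensity of every array. The highest single value was 6.72 among 6 macrophage markers (Fcgr3 in the differentiated culture of mouse 2) and 2.77 among 4 adipocyte markers. Smooth muscle markers were brighter, with sums over 6 genes of 169, 59.5 and 170 against 98.5, 12.9 and 87.0, most of it from Acta2. None of these 6 passed in limma. Of 8 measured myoblast markers 1 fell, Vcam1, and 0 rose, with 2 positive and 6 negative differences. In fibroblast markers the sum over 12 genes was 193, 74.9 and 57.9 against 84.1, 76.9 and 46.3, most of it from Tcf21. None of the 12 passed in limma, and with mouse as a random block 1 was called lower, Fbln1 (0.549, 0.11 and 0.489 against 2.19, 3.01 and 3.47, adjusted p = 0.0114). That block called 5.28% of all features lower. Of the 12 genes, 8 had positive and 4 negative differences, with a median of 0.56 against 0.20 over all features. Tcf4 reached 9.55 and Mfap5 1.39, while Col1a2, Dcn, Lum, Pdgfra and Thy1 did not exceed 0.764. Tcf4 was listed by its symbol, and whether it marks fibroblasts in these cultures was not tested. In bulk samples such as these, fewer cells of a type and less RNA per cell cannot be told apart.

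None of the 5 reference genes passed the threshold (0 of 5 in limma, with 1 at an unadjusted p under 0.05), but the sizes of their differences varied widely. Actb had the largest difference and the least agreement between mice. Differences are log2 of differentiated minus proliferating. The 95% intervals are those of the limma fit without mouse, for single genes, with no adjustment over genes.

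Actb (feature for NM_007393, on chromosome 5 of GRCm38.p6 at 142903115 to 142907976) had intensities of 25.3, 15.3 and 62.5 in differentiated cultures of mice 1, 2 and 3, against 105, 286 and 53.9 in their proliferating cultures. The groups overlapped, because in mouse 3 the differentiated culture was the higher one. Within-mouse log2 differences were -2.06, -4.22 and 0.21, so that the differentiated culture was 18.6-fold lower in mouse 2 and 1.16-fold higher in mouse 3. The group difference was -2.02 ± 0.75 (SE, n = 3 per group, limma adjusted p = 0.259), with an interval of -3.74 to -0.30. In fold terms the mean was 4.06-fold lower in differentiated cells. The difference was -0.92 without both cultures of mouse 2 and -3.14 without those of mouse 3. Among 10186 features, 6.06% had a larger difference in either direction. The proliferating culture of mouse 2, which had the highest Actb, had the lowest summed muscle markers and the highest summed proliferation markers of the 6 arrays. Over the proliferating cultures the order of Actb was mouse 2, 1, 3 while that of the muscle sum was 1, 3, 2, and the part of these markers in the Actb values was not tested.

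Ppia (NM_008907, chromosome 11 at 6415867 to 6419817) had intensities of 27.4, 46.0 and 43.1 in differentiated cultures, against 53.0, 173 and 60.4 in proliferating cultures. The groups did not overlap, and all 3 mice showed a lower value after differentiation. The proliferating culture of mouse 2 stood well above the other two, as it did for Actb. The group difference was -1.12 ± 0.56 (SE, n = 3 per group, limma adjusted p = 0.407), with an interval of -2.41 to 0.17, and within-mouse differences were -0.95, -1.91 and -0.49. Without that 1 array the group difference was -0.58.

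Gapdh (NM_008084, chromosome 6 at 125161852 to 125166467) had a difference of the opposite sign, with 568, 439 and 325 in differentiated cultures against 305, 306 and 247 in proliferating cultures. Here too the groups did not overlap, and the values were higher after differentiation in 3 of 3 mice. The group difference was 0.61 ± 0.42 (SE, n = 3 per group, limma adjusted p = 0.57), with an interval of -0.36 to 1.57. The within-mouse differences of 0.90, 0.52 and 0.40 had an SD of 0.26, the smallest of the 5 genes. Gapdh and Ppia were thus 2 of 5 genes with no overlap between groups, and 20.7% of the 10128 features with 6 values also showed none.

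Hprt (NM_013556, chromosome X at 52988078 to 53021660) had 48.3, 31.0 and 25.5 in differentiated cultures, against 30.2, 24.6 and 26.6 in proliferating cultures. The groups overlapped, and the differentiated culture of mouse 1 stood above the other 5 arrays. The difference was 0.32 ± 0.43 (SE, n = 3 per group, limma adjusted p = 0.813), with an interval of -0.67 to 1.30. It was 0.05 without the differentiated culture of mouse 1, and after quantile normalization it was -0.017.

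Tbp (NM_013684, chromosome 17 at 15499888 to 15517427) had 4.17, 1.30 and 2.28 in differentiated cultures, against 3.33, 2.02 and 3.01 in proliferating cultures. The groups overlapped almost wholly, while in both groups mouse 1 was the highest and mouse 2 the lowest. The difference was -0.24 ± 0.53 (SE, n = 3 per group, limma adjusted p = 0.894), with an interval of -1.46 to 0.99, and it was 0.18 without the differentiated culture of mouse 2. An interval of this width does not show that Tbp was steady.

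**Figure D1:**
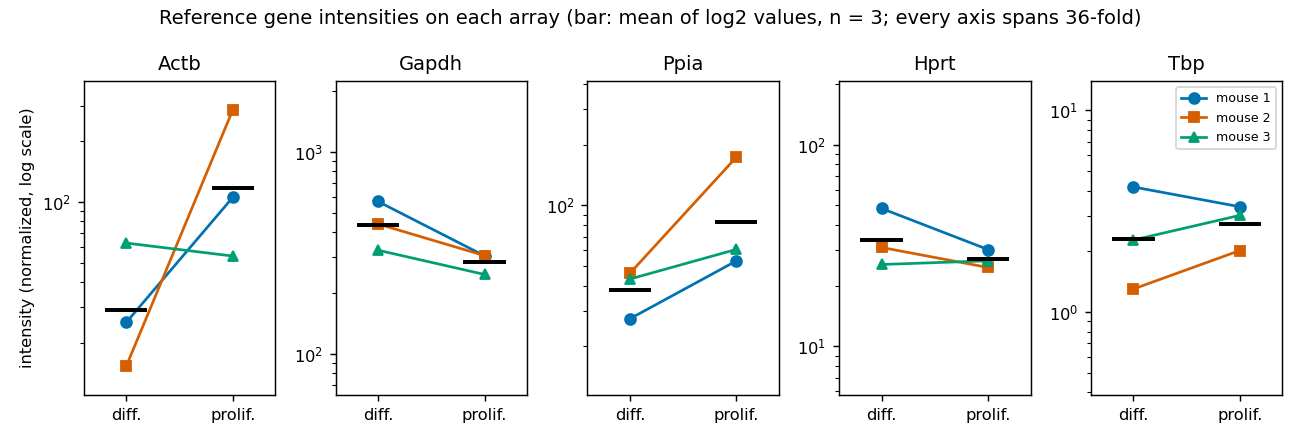
Normalized intensity (log scale) of each reference gene on each array, with differentiated cultures left and proliferating cultures right of each panel. Lines join the cultures of 1 mouse and black bars are means of log2 values (n = 3). Actb crosses over in mouse 3, Ppia is lower and Gapdh higher after differentiation in all 3 mice, and Tbp keeps the order of the mice at its ends.

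Where the variation lay differed from gene to gene. Of the total sum of squares of the log2 values, the mouse accounted for 81.2% in Tbp and 55.5% in Hprt, but for 1.16% in Actb. The group accounted for 58.7% in Gapdh, 54.9% in Actb and 47.3% in Ppia, against 23.3% in Hprt and 4.74% in Tbp. The remainder was 44.0% in Actb and 7.16% in Gapdh. With 3 mice and 2 groups on 6 arrays, each term takes some share even without an effect, the mouse more than the group. The shares over all features are not given here, so these values are a description only. With mouse in the model, as a fixed or as a random block, limma called 0 of 5 genes as well, with 1 and 2 of them at an unadjusted p under 0.05 and smallest adjusted p values of 0.168 and 0.105. That 1 gene was Actb without a block but Ppia in the fixed block, and both were under it in the random block. The interval in the fixed block was -2.11 to -0.13 for Ppia and -4.29 to 0.25 for Actb. Over all features the fixed block called 0.56% higher and 0.874% lower (1.43% in all), and the random block 5.07% and 5.28% (10.3% in all).

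The overall spread gave one order from steady to variable. The SD of the log2 intensity over the 6 arrays was 0.36 for Hprt, 0.43 for Gapdh, 0.60 for Tbp, 0.89 for Ppia and 1.49 for Actb, where the median over 10128 features was 0.75. The highest array exceeded the lowest by 1.96-fold for Hprt, 2.3-fold for Gapdh, 3.21-fold for Tbp, 6.33-fold for Ppia and 18.6-fold for Actb. Actb varied more than 95.3% of 253 features of like intensity (mean within 0.5 on the log2 scale), and Ppia more than 84.5% of 271. Hprt varied more than only 12.8% of 383 such features and Tbp more than 42.7% of 1095. For Gapdh there were only 24 features of like intensity, of which 62.5% varied less. After quantile normalization, which also lowered the median difference over all features to 0.04 from 0.20 without it, the SD was 0.17 for Hprt and 0.19 for Gapdh, against 1.57 for Actb. The share of like features that varied less than Gapdh was then 17.4%.

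Neighbours in this order were not always separate from one another. Hprt and Gapdh kept that order, and Actb stayed last, when any 1 array was left out. Without the proliferating culture of mouse 2 the SD of Ppia was 0.43, below that of Gapdh (0.47) and Tbp (0.65), so the place of Ppia rested on that 1 array. Actb had an SD of 1.10 without it and of 0.85 without both cultures of mouse 2, when Tbp had the lowest SD (0.36).

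**Figure D2:**
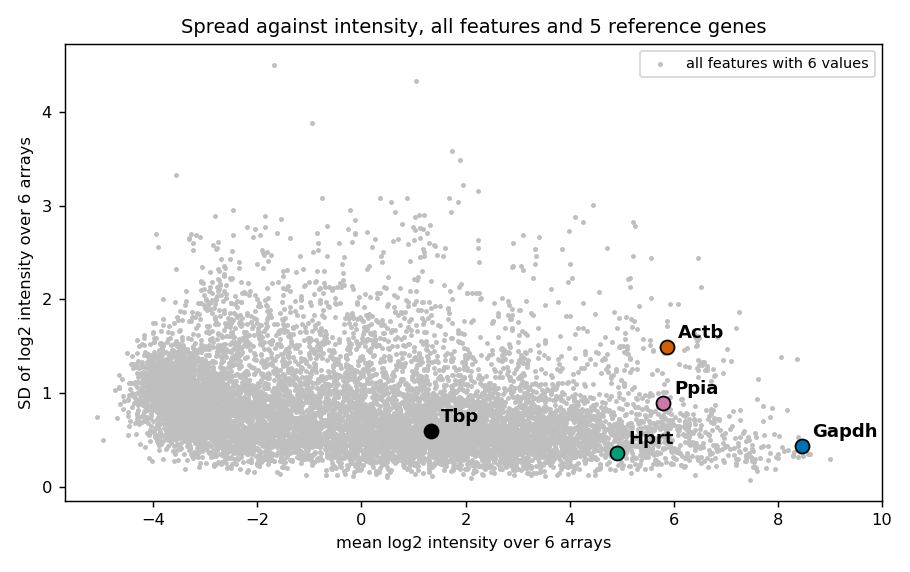
SD of log2 intensity over 6 arrays against mean log2 intensity, for all features with 6 values (grey) and the 5 reference genes. Hprt (0.36) lies low among features of like intensity, Tbp (0.60) amid them, and Ppia (0.89) and Actb (1.49) above most. Gapdh (0.43) lies at the bright end, where few features are.

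A reference gene is used as a ratio, and ratios between the 5 genes ask whether any of them moved apart from the others. Each pair was tested in the fit of all features scaled to the gene named last. Of 10 pairs, Gapdh and Hprt kept the steadiest ratio, with an SD of 0.23 over the 6 arrays. Their log2 ratio differed by 0.29 ± 0.38 between groups (SE, n = 3 per group, limma adjusted p = 0.813), with an interval of -0.59 to 1.17. Within mice it differed by 0.22, 0.19 and 0.46. The next pairs were Hprt with Tbp (SD 0.52) and Gapdh with Tbp (SD 0.72), which differed by 0.55 and 0.84.

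Pairs with Actb or Ppia spread more. Actb against Gapdh had the widest ratio, with an SD of 1.80 and a log2 difference of -2.63 ± 0.78 (SE, n = 3 per group, limma adjusted p = 0.108), or 6.17-fold lower after differentiation. This difference was -1.57 without mouse 2 and -3.85 without mouse 3. Its within-mouse shifts of -2.95, -4.74 and -0.19 had 1 sign and the groups did not overlap. Actb against Hprt differed by -2.34 and Actb against Tbp by -1.78, each lower in 2 of 3 mice. Gapdh against Ppia differed by 1.72 ± 0.96 (SE, n = 3 per group, limma adjusted p = 0.244), or 3.3-fold, with 1.85, 2.43 and 0.89 in mice 1, 2 and 3 and no overlap between groups. In the fit scaled to Ppia limma gave all features one variance, and with the prior variance of the unscaled fit the SE was 0.61, the interval 0.33 to 3.12 and the limma adjusted p 0.12. Ppia against Hprt differed by -1.43 and also showed no overlap, while Ppia against Tbp differed by -0.88. Actb against Ppia differed by -0.90 with the mice at -1.11, -2.31 and 0.70. In all, 3 of 10 ratios showed no overlap between groups. The share of all features with none after such scaling is not given here, so this count is a description only.

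No pair passed in the fit without mouse (0 of 10 in limma, with 2 at an unadjusted p under 0.05). These 2 were the lower ratios of Actb to Gapdh and of Actb to Hprt. At that p, scaling to Gapdh left 1751 of 10186 features lower and 278 higher, and scaling to Hprt 1143 and 490. The count of 2 is thus a description only. With mouse as a fixed block, Gapdh against Ppia passed (limma adjusted p = 0.0405). In the random block it passed again (limma adjusted p = 0.0224), as did Actb against Gapdh (limma adjusted p = 0.0456). Scaled to Ppia, the fixed block called 3375 features higher and 126 lower, and the random block 4351 and 156. Both of these fits gave all features a common variance. Calls were frequent there, and with the prior of the unscaled fit the fixed block still called 4196 higher and 165 lower. The pass thus does not single out Gapdh against Ppia. Scaled to Gapdh, the random block called 178 features higher and 1343 lower. Over all 18 alternatives the adjusted p (limma) ranged from 0.0195 to 0.627 for Gapdh against Ppia and from 0.0445 to 0.477 for Actb against Gapdh.

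The measure M of the geNorm method, the mean SD of a gene's log2 ratio to the others, put the genes in the same order as the SD. M was 0.91 for Hprt, 0.99 for Gapdh, 1.01 for Tbp, 1.13 for Ppia and 1.5 for Actb. Tbp came before Gapdh in M without the proliferating culture of mouse 2, and also without both cultures of mouse 1. Without both cultures of mouse 2 Tbp had the lowest M, while Actb stayed last. When the gene of highest M was dropped in turn, Actb left first, Ppia next with an M of 1.20 among 4 genes and then Tbp with 0.62 among 3. Gapdh and Hprt remained as the pair.

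**Figure D3:**
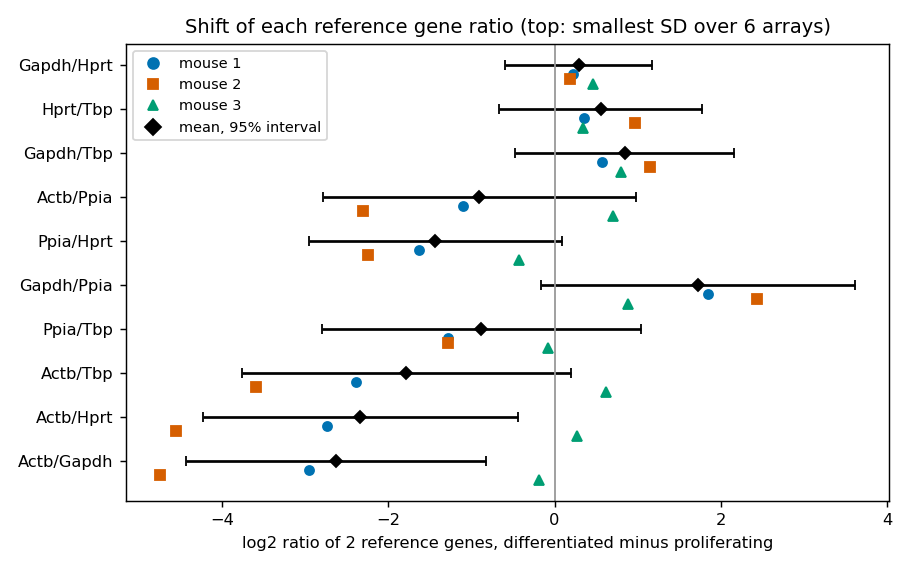
Shift of the log2 ratio of each pair of reference genes, differentiated minus proliferating. Diamonds with bars are the limma difference and its 95% interval, coloured points the 3 mice, and pairs run from the smallest SD over 6 arrays at the top (Gapdh/Hprt, 0.23) to the largest (Actb/Gapdh, 1.80).

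For the 10128 features with 6 values, the choice of reference shifts every difference by one and the same amount. Scaling each array to Actb added 2.02 to their log2 differences, and scaling to Ppia added 1.12. Scaling to Tbp added 0.24, while scaling to Hprt and to Gapdh moved them by -0.32 and -0.61. The share of features with a positive difference was 61.4% without scaling, 97.1% scaled to Actb, 91.7% to Ppia, 72.3% to Tbp, 44.0% to Hprt and 29.1% to Gapdh. With the mean of all 5 genes it was 80.7%.

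Myog, the transcription factor that drives terminal muscle differentiation, shows the size of this effect. Its intensities were 210, 83.7 and 112 in differentiated cultures against 142, 18.3 and 44.8 in proliferating cultures, a 2.56-fold higher mean. Set against Actb it was 10.4-fold higher, against Ppia 5.57-fold, against Tbp 3.02-fold, against Hprt 2.06-fold and against Gapdh 1.69-fold. Its limma adjusted p ran from 0.0528 with Actb to 0.632 with Gapdh. Ckm, the muscle creatine kinase, was 13.2-fold higher unscaled, with intensities of 51.4, 1.00 and 47.9 against 7.05, 0.103 and 1.49. It was 53.6-fold higher against Actb and 8.67-fold higher against Gapdh. Top2a, the topoisomerase of dividing cells, had 0.27, 0.125 and 0.363 against 4.56, 15.3 and 12.3, or 41.2-fold lower after differentiation. It was 62.6-fold lower against Gapdh but 10.1-fold lower against Actb, where it missed the threshold (limma adjusted p = 0.0542, and 0.00923 against Gapdh). Ckm passed when scaled to Actb or to Ppia, in fits where limma gave all features one variance, but with the prior variance of the unscaled fit its limma adjusted p was 0.055 and 0.155. All 3 genes kept their direction with each of the 5 references.

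**Figure D4:**
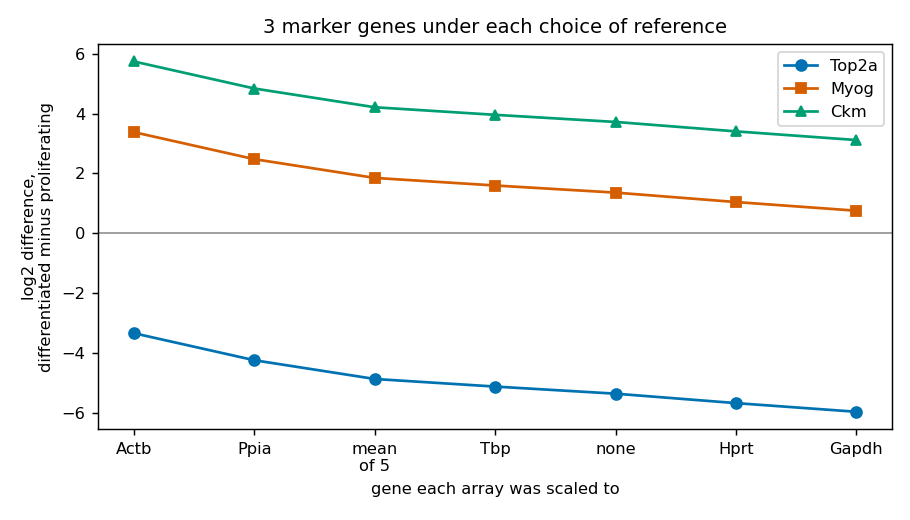
Log2 difference (differentiated minus proliferating) of Top2a, Myog and Ckm after scaling each array to the gene on the x axis, to the mean of the log2 values of all 5, or to none. The lines run in parallel, from the highest values with Actb to the lowest with Gapdh.

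Calls over all features moved with the reference. Scaled to Gapdh, limma called 33 features higher (0.324%) and 426 lower (4.18%, with 4.51% in all). Scaled to Hprt it called 41 (0.403%) and 209 (2.05%, with 2.45% in all). Scaled to Tbp it called 28 (0.275%) and 33 (0.324%, with 0.599% in all). Scaled to the mean of 5 it called 50 (0.491%) and 47 (0.461%, with 0.952% in all), against 29 and 103 without scaling. Of the 132 unscaled calls, 129 were kept with Gapdh, 130 with Hprt, 50 with Tbp and 75 with the mean of 5. Scaled to Actb the counts were 697 (6.84%) and 0, and scaled to Ppia 394 (3.87%) and 19 (0.187%, with 4.05% in all). In every scaled fit the error of the reference is shared by all features. In the fits scaled to Actb and to Ppia limma's prior also gave every feature one common variance, so their counts are not comparable with the others. With the prior variance of the unscaled fit the counts were 2 and 0 with Actb and 0 and 0 with Ppia, where 3438 features had an unadjusted p under 0.05 with Ppia. With mouse as a fixed block the counts were 89 and 693 with Gapdh, 161 and 429 with Hprt, and 210 and 183 with Tbp. With the prior of the unscaled fit, that block gave 61 and 549, 21 and 120, and 27 and 65 for the same 3 genes.

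Of 58 other genes in common use as references 32 were measured, and none passed (0 of 32 in limma, with 4 at an unadjusted p under 0.05, against 14.9% of all features, 7.82% higher and 7.09% lower). Their median difference was 0.01, against 0.20 over all features tested. Rps18, a protein of the small ribosomal subunit, had the lowest SD of the 32 at 0.07, with intensities of 176, 190 and 182 in differentiated cultures against 172, 173 and 166 in proliferating cultures. Psmc4, an ATPase of the proteasome cap, followed at 0.22, then the large-subunit proteins Rpl13a (0.24) and Rplp0 (0.28) and the Golgi syntaxin Stx5a (0.30). At the other end were Tfrc, the transferrin receptor (1.07), the helicase Eif4a2 (1.01), the ATP synthase subunit Atp5b (0.95), the chaperone calnexin, Canx (0.93), and the tubulin Tubb5 (0.89). Of the 32, 7 had a lower SD than Hprt, 11 than Gapdh, 17 than Tbp, 28 than Ppia and 32 than Actb. With mouse as a random block limma called Eif4a2 higher and Ppib and Gusb lower (adjusted p = 0.0421, 0.0364 and 0.047), where this fit called 10.3% of all features, and with a fixed block none.

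**Figure D5:**
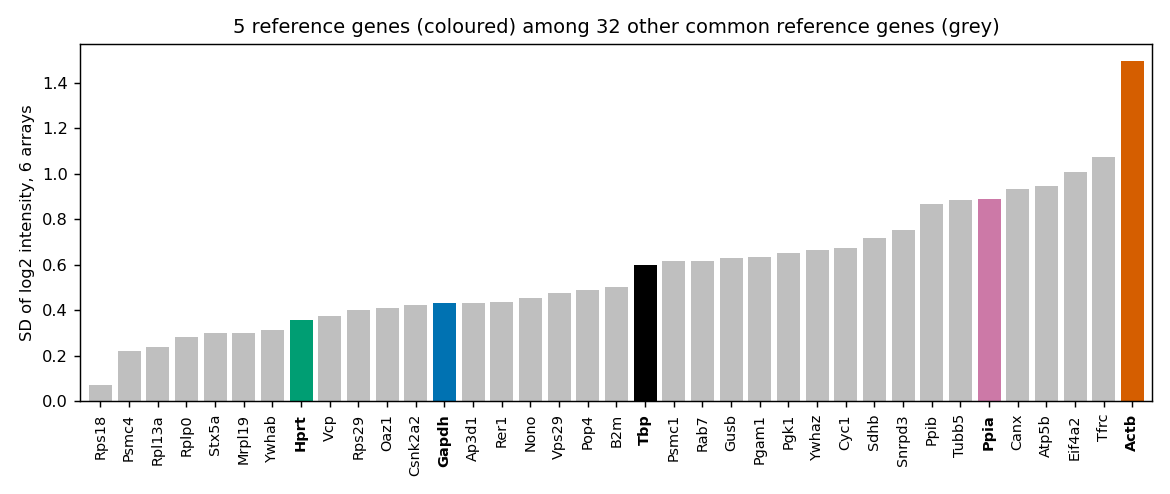
SD of log2 intensity over 6 arrays for the 5 reference genes (coloured) and 32 others in common use (grey), from lowest to highest. Rps18 is lowest at 0.07, Hprt and Gapdh stand in the lower part, and Actb is highest at 1.49.

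The genes that work beside the reference genes were scored by list. Over all features limma called 0.285% higher and 1.01% lower (1.3% in all). Of 39 measured actins and regulators of the actin cytoskeleton, 1 fell and 0 rose, with a median difference of -0.12. Ezr, the ezrin that links actin to the membrane, fell by 2.73 ± 0.48 (SE, n = 3 per group, limma adjusted p = 0.0408), with 1.61, 1.07 and 0.93 in differentiated cultures against 10.1, 9.43 and 4.89 in proliferating cultures. The random block called 6 of the 39 lower, among them Fscn1, which bundles actin at protrusions, and the filament-severing Cfl1, and 2 higher, Cap2 and the muscle cofilin Cfl2, where over all features it called 5.28% lower and 5.07% higher. A fixed block called 2 lower, Ezr and Dstn. Of the other actins on the array, named after their values were seen, cardiac alpha-actin Actc1 had 319, 379 and 277 against 241, 43.1 and 158. The smooth muscle actin Acta2 had 146, 49.7 and 148 against 80.1, 8.59 and 81.1. The enteric smooth muscle actin Actg2 was dim, with 0.154, 0.0746 and 0.0524 against 0.213, 0.125 and 0.0728 and a difference of -0.56 (limma adjusted p = 0.738). Actc1 and Acta2 had their lowest value in the proliferating culture of mouse 2, the array with the highest Actb, and neither passed (limma adjusted p = 0.351 and 0.538).

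Of 17 measured glycolytic genes beside Gapdh, 0 passed in limma, with 3 higher at an unadjusted p under 0.05 and a median difference of 0.64. Over all features 7.82% were higher at that p, and the median difference was 0.20. The gene of smallest p was Pgam2, the muscle phosphoglycerate mutase, with 166, 115 and 118 against 57.3, 11.6 and 23.0 and a difference of 2.40 (limma adjusted p = 0.11). With mouse in the model as a random block, limma called Pgam2, Pfkm and Eno2 higher (adjusted p = 0.0152, 0.0198 and 0.0352), where over all features it called 5.07% higher. Of 18 genes of purine synthesis and salvage, the setting of Hprt, 1 fell and 0 rose, with a median of 0.17. Over all features limma called 1.01% lower. The random block called 4 lower, Adss, Dck, Prps2 and Pnp, and 1 higher, the muscle isozyme Adssl1 (adjusted p = 0.0331 in limma). That block called 5.28% of all features lower and 5.07% higher. Adss, the adenylosuccinate synthase of AMP synthesis, fell by 2.68 ± 0.49 (SE, n = 3 per group, limma adjusted p = 0.0484). Of 14 cyclophilins and other immunophilins beside Ppia, 0 passed in limma, with 1 lower at an unadjusted p under 0.05 and a median of -0.18. Over all features 7.09% were lower at that p. Ppib, the cyclophilin of the endoplasmic reticulum, had the smallest p, with a difference of -1.39 (limma adjusted p = 0.217) and 19.2, 10.1 and 12.8 against 46.5, 38.8 and 24.6. Of 18 genes of TFIID, the RNA polymerase I factor SL1, the general transcription factors, RNA polymerase II and related regulators beside Tbp, 0 passed in limma and 0 had an unadjusted p under 0.05. Their median was 0.34, and Gtf2h1, a subunit of TFIIH, had the smallest p (difference 0.74, limma adjusted p = 0.505).

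Features whose profile over the 6 arrays lay nearest to each reference gene were picked by Pearson correlation of log2 values among 4652 named features above the 25th percentile of intensity. With 6 arrays and this many candidates, correlations near 1 are given as a description only. For Actb they were the adaptor Sh3bp2 (r = 0.994), the striated muscle kinase Speg (0.992) and the glycolytic mutase Pgam1 (0.981). Pgam1 had 22.1, 18.2 and 34.4 in differentiated cultures against 44.0, 59.8 and 37.6, a narrower range than Actb. For Ppia they were the motor protein Myo9b (0.974), Nubp1 (0.972) and the clamp loader subunit Rfc1 (0.969). For Gapdh they were Mycbp (0.989), Atp9a (0.985) and Lztfl1 (0.982), and the ratio of Mycbp to Gapdh had an SD of 0.09. For Hprt they were the cyclin G1 gene Ccng1 (0.988), the helicase Ddx50 (0.985) and the proteasome subunit Psmb6 (0.985). For Tbp they were Xab2 (0.998), the repair endonuclease Ercc5 (0.992) and beta-catenin, Ctnnb1 (0.992), with 20.8, 5.10 and 10.7 against 19.0, 9.61 and 15.4 for Ctnnb1. None of the 15 passed the threshold in limma.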

How the data were processed

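RNA from each culture (5 µg) was made into biotin-labelled cRNA and hybridised to 1-colour CodeLink arrays. The deposited table holds the authors' processed intensity values on a linear scale, which, per the labels' protocols, bacterial control mRNAs served to normalize. How scanner output was read, background-corrected and scaled is not given in the sources used here, and the number of arrays limits the precision. Values below 0.0236, the 1st percentile of the positive ones, were raised to it before log2. Log2 medians of the arrays differed by 0.0892 at most, under a tolerance of 0.2, so no scaling was added. Symbols came from the platform annotation (6373 features with 1 symbol, 4127 with none, 0 with several), and Entrez IDs of all 6373 were found in the GRCm38.p6 table with 0 symbols changed. The 10186 features with at least 2 values per group entered limma 3.58.1 (R 4.3.3) with group as the only term, Benjamini-Hochberg adjustment over all features and a threshold of 0.05. Ratios and scalings subtracted a gene's log2 value on each array before the same fit. For other genes the feature of highest mean was used. The procedure was tested on simulated data.

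The members, lists and naming rule were chosen with earlier results of these data known. The rule named the 5 genes, the 3 most alike features of each, the 5 least and 5 most variable other references, genes passing (or of smallest p) in each neighbouring list, the 5 steadiest named features, and Top2a, Myog and Ckm. Per the series design, a single mouse provided both cultures of a number. With group means removed, same-mouse arrays correlated across features at 0.42, 0.37 and 0.28, so the numbers pair the arrays. Mouse as a fixed or random block, other floors, a pseudocount, quantile normalization, median centring, the choice of features tested, another variance prior, and leaving out arrays were alternatives. The variance prior of the unscaled fit, alone and with either block, was added after seeing the data.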

Additional observations from a re-analysis of the deposited data

How the results depend on the processing

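In limma the 5 genes missed the threshold under all 18 alternatives, with adjusted p from 0.105 to 0.808 for Actb, 0.216 to 0.852 for Gapdh, 0.109 to 0.816 for Ppia, 0.541 to 0.986 for Hprt and 0.653 to 0.987 for Tbp. The difference of Hprt was -0.017 after quantile normalization, and without 1 array or 1 mouse that of Tbp ran from -0.66 to 0.18, above 0 without the differentiated culture of mouse 2. With mouse as a replicate block, which the pairing allows, the ratio of Gapdh to Ppia passed at 1.72 (limma adjusted p = 0.0405 fixed and 0.0224 random). The ratio of Actb to Gapdh passed at -2.63 in the random block alone (0.0456). With the variance prior of the unscaled fit, an alternative chosen after seeing the data, these p-values were 0.034, 0.0195 and 0.0445, and the block changed no other call of a gene or ratio. Counts of features called higher and lower after scaling depended most on the settings. The fixed block gave 100 higher with Actb, 3375 and 126 with Ppia, 89 and 693 with Gapdh, 161 and 429 with Hprt, 210 and 183 with Tbp, and 352 and 141 with the mean of 5. The random block gave 27 higher with Actb, 4351 and 156 with Ppia, 178 and 1343 with Gapdh, 172 and 539 with Hprt, 702 and 339 with Tbp, and 486 and 187 with the mean of 5. In both blocks the fits scaled to Actb and to Ppia again gave all features one variance. With the prior of the unscaled fit the fixed block gave 0 and 0 with Actb, 4196 and 165 with Ppia, 61 and 549 with Gapdh, 21 and 120 with Hprt, 27 and 65 with Tbp, and 58 and 48 with the mean of 5. With that prior and the correlation of the unscaled fit the random block gave 6350 and 38 with Actb, 4868 and 205 with Ppia, 202 and 1479 with Gapdh, 280 and 766 with Hprt, 887 and 374 with Tbp, and 1733 and 369 with the mean of 5. That correlation was 0.54, where the fit scaled to Actb had -0.57 of its own. Without a block, the prior of the unscaled fit gave 2 higher with Actb, 0 and 0 with Ppia, and 58 and 58 with Tbp. A floor at the 10th percentile gave 1 lower with Actb, 68 and 315 with Hprt, 65 and 62 with Tbp, and 249 and 138 with the mean of 5. A pseudocount gave 1102 higher with Actb, 789 lower with Gapdh, 64 and 335 with Hprt, 131 and 78 with Tbp, and 546 and 167 with the mean of 5. Quantile normalization gave 3661 and 2 with Actb, 10 lower with Ppia and 130 higher with the mean of 5. Leaving out 1 array or 1 mouse gave 10 to 8570 higher and 0 to 2 lower with Actb, 1 to 1009 and 0 to 22 with Ppia, 0 to 63 and 0 to 327 with Gapdh, and 0 to 97 and 0 to 191 with Hprt. For Tbp the ranges were 0 to 39 and 0 to 26, and for the mean of 5 they were 0 to 227 and 0 to 67. The causes were not tested, except that fewer arrays leave fewer degrees of freedom. Over the same omissions the SD of Actb ran from 0.85 to 1.93 and it stayed the most variable of the 5. No measure of signal over background was used here, so the share of background in dim values such as those of Top2a is unknown.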

Other observations

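Among 3115 named features above the median intensity, the 5 with the lowest SD of log2 intensity over the 6 arrays were Rps18 (0.07), Ranbp9 (0.09), Banp (0.12), Chtop (0.12) and Orc4 (0.12). Rps18 is a ribosomal protein, Ranbp9 a scaffold protein, Banp a chromatin protein, Chtop an mRNA export factor and Orc4 a subunit of the origin recognition complex. The highest array exceeded the lowest by 1.15-fold for Rps18, 1.17-fold for Ranbp9 and 1.24 to 1.29-fold for the other 3. Their differences ran from -0.11 for Orc4 to 0.13 for Banp, and none passed (limma adjusted p from 0.92 to 0.996). They were picked for their low SD among many features, so these values are a description. In the same set, 391 features varied less than Hprt, 652 less than Gapdh, 1425 less than Tbp, 2389 less than Ppia and 2915 less than Actb.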
